A study of Homo sapiens with 8 samples.

Results

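ARL6IP5 is a small membrane protein of the endoplasmic reticulum (ER), and its mRNA is set here beside 8 genes of related proteins in 22Rv1 cells that received a mimic of the microRNA miR-194. The 9 genes were taken by symbol from a table of raw counts for 23346 gene symbols, and all 9 passed the filter on low counts that left 14977 genes for testing. ARL6IP5 was chosen by its log2 fold change, its level and the lack of overlap between the groups in this same comparison, so its change is described and carries no p-value. The other 8 genes, PRAF2, RABAC1, ARL6IP1, RTN3, RTN4, REEP5, ATL2 and ATL3, were picked for their family or function. That choice was made with earlier results of these data known. The 22Rv1 line is an established human prostate cancer line, grown here in serum. Its cells received either the miR-194 mimic or a negative control RNA at 20 nM in suspension, and RNA was taken 36 h later from 4 libraries of each kind. The study asked how miR-194 acts after transcription in prostate cancer. Both groups were transfected and untransfected cells were not analysed here, so a higher level in mimic libraries is equally a lower level in control libraries.

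The ER is a single membrane system of flat sheets and narrow tubules. Proteins with hairpin-shaped membrane segments (the reticulons, the REEP proteins and ARL6IP1) curve the membrane into tubules, and the atlastins, which are GTPases, fuse tubules at junctions. The PRA1 family (RABAC1, PRAF2 and ARL6IP5) consists of small proteins with several membrane segments that act in trafficking between the ER and the Golgi apparatus; RABAC1 is known for releasing Rab GTPases from their cytosolic inhibitor, and ARL6IP5 for holding back the glutamate transporter encoded by SLC1A1, as shown in rodents. A microRNA lowers mRNAs by pairing of its seed, bases 2 to 8 from the 5′ end, with sites that lie mostly in 3′ UTRs.

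The pairing sequences are shown first, since the 9 genes differ in them and the rule that picked the genes did not use them. The mature miR-194-5p from RefSeq (GRCh38.p14), encoded on chromosomes 1 and 11 (minus strand in each), is given with the seed in capitals. Below it stand the matches in the longest annotated 3′ UTR of ARL6IP5 and of the 3 other genes with any match, each a 30-base window of the transcript strand from GENCODE 29 with the match in capitals.
hsa-miR-194-5p: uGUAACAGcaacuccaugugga
ARL6IP5 match 1: ctgtttaggatatttTGTTACAtttttgta
ARL6IP5 match 2: ttgcacattttttgtTGTTACAgtgaaaaa
ARL6IP5 match 3: attttagatagcaatTGTTACAaccatatg
ATL3: tattttattcactgCTGTTACActttagaa
ARL6IP1: tatctggatactaaaaTGTTACggaagtag
REEP5: catgtacatatggaaaTGTTACtgtctgac

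ARL6IP5 held 3 7mer-A1 sites (TGTTACA, a match to bases 2 to 7 followed by A), ATL3 held 1 8mer site (CTGTTACA, which also matches base 8), and ARL6IP1 and REEP5 held 1 6mer each (TGTTAC, bases 2 to 7 alone). PRAF2, RABAC1, RTN3, RTN4 and ATL2 held no match in the 3′ UTR. RABAC1 held an 8mer match in its coding sequence. The ARL6IP5 sites lie at chr3:69105227-69105233, chr3:69105421-69105427 and chr3:69105672-69105678 (GRCh38, plus strand, from the match to GENCODE transcripts), inside a 3′ UTR of 1430 bases at positions 591, 785 and 1036 after the stop codon. Both annotated 3′ UTRs of the gene hold the sequence TGTTACA, but whether each holds all 3 sites was not checked. Outside the match itself, A and T made up 78.3%, 73.9% and 73.9% of the 3 ARL6IP5 windows, 77.3% of the ATL3 window, 66.7% of the ARL6IP1 window and 62.5% of the REEP5 window. The ATL3 site lies at chr11:63627359-63627366 (minus strand), at position 1953 of a 3′ UTR of 5232 bases, and 1 of the 2 annotated 3′ UTRs of ATL3 holds it. The 6mers lie at chr16:18793165-18793170 in ARL6IP1 and at chr5:112878325-112878330 in REEP5 (minus strand for both). The sequence TGTTAC occurs, at any position, in 3 of 3 and 2 of 3 of their annotated 3′ UTRs. Which 3′ UTRs the cells used was not measured.

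**Figure D1:**
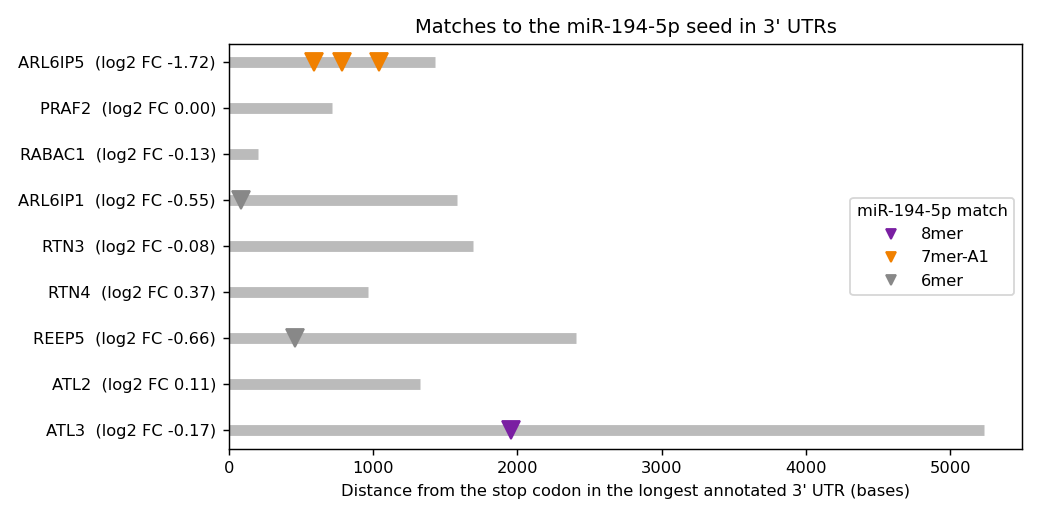
Grey bars show the longest annotated 3′ UTR of each of the 9 genes, in bases from the stop codon on the x axis, and triangles mark matches to the miR-194-5p seed by class. ARL6IP5 holds 3 7mer-A1 sites within 1430 bases, ATL3 holds 1 8mer in 5232 bases, ARL6IP1 and REEP5 hold a 6mer each, and 5 genes hold none; the log2 fold change of each gene stands beside its name.

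Such sites were uncommon in number but not in kind. Among 13438 tested genes with an annotated 3′ UTR, 8.75% had a 7mer-A1 as their best site, 4.26% an 8mer and 12.4% only a 6mer, while 1.53% had at least 3 8mer or 7mer sites. Among 2404 tested genes whose 3′ UTR was within 25% of the length of that of ARL6IP5, 15.9% held at least 1 such site and 1 gene, ARL6IP5 itself, held 3 or more. Over all lengths, 205 genes held at least 3, and their median log2 fold change was -0.25, against 0.03 for genes with no such site. The 25 genes whose 3 sites were all 7mer-A1 had a median of -0.31, with the lowest decile at or below -0.99. ARL6IP5 is 1 of these 25 genes and of the 205. Its fall was larger than that decile, which follows from its choice by size of fall. Of the genes with at least 3 sites 52.7% fell, as did 39.2% of those whose best site was a 7mer-A1, 38.0% of those with a 7mer-m8 (CTGTTAC, bases 2 to 8) and 49.1% of those with an 8mer. A fall at least as large as that of ARL6IP5 was seen in 1.22% of genes with an 8mer as best site. The share was 0.170% for a 7mer-A1, 0.0977% for a 7mer-m8, 0% for a 6mer and 0.0222% for no match. These shares count few genes, ARL6IP5 among them. Genes picked for so large a fall thus held sites more often than all tested genes.

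**Figure D2:**
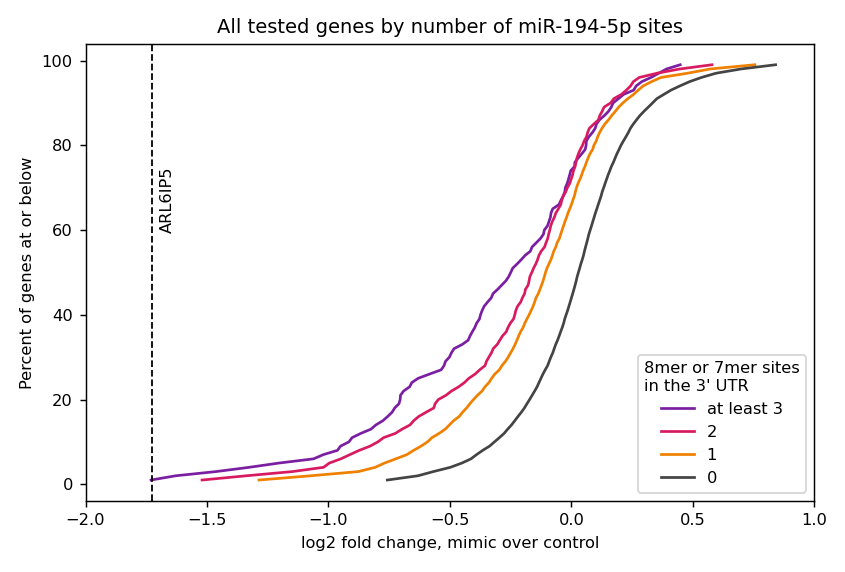
The curves give the percent of tested genes (y axis) at or below each log2 fold change of mimic over control (x axis), for genes with at least 3, 2, 1 or 0 8mer or 7mer miR-194-5p sites in the 3′ UTR, from the 1st to the 99th percentile. The dashed line marks ARL6IP5 at -1.72, at the low end of the curve for genes with at least 3 sites. ARL6IP5 is 1 of those genes and was picked for its fall.

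ARL6IP5 mRNA was lower in every mimic library than in any control library. Its level was 33.4, 29.4, 28.5 and 31.1 CPM (read counts relative to the TMM-scaled library total) in mimic replicates 1 to 4, against 97.2, 97.1, 103 and 108 CPM in control replicates 1 to 4. The groups lay far apart and neither held a library that stood away from the others. The mean was 30.6 ± 2.16 CPM in mimic libraries and 101 ± 5.31 CPM in control libraries (SD, n = 4 each), so 30.2% of the control level remained, a log2 fold change of -1.72 ± 0.06 (SE). By size of fall it stood in place 10 among the called genes whose mean log2 CPM reached 3 and whose groups did not overlap, just after TMED5 at -1.73 and just before DUSP9 at -1.71. The log2 fold change was -1.63 with replicates 1 and 2 alone and -1.82 with replicates 3 and 4 alone. ARL6IP5 (ENSG00000144746.6) lies at chr3:69084944-69106066 (GRCh38, plus strand), and no other gene of GENCODE 29 overlaps it.

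**Figure D3:**
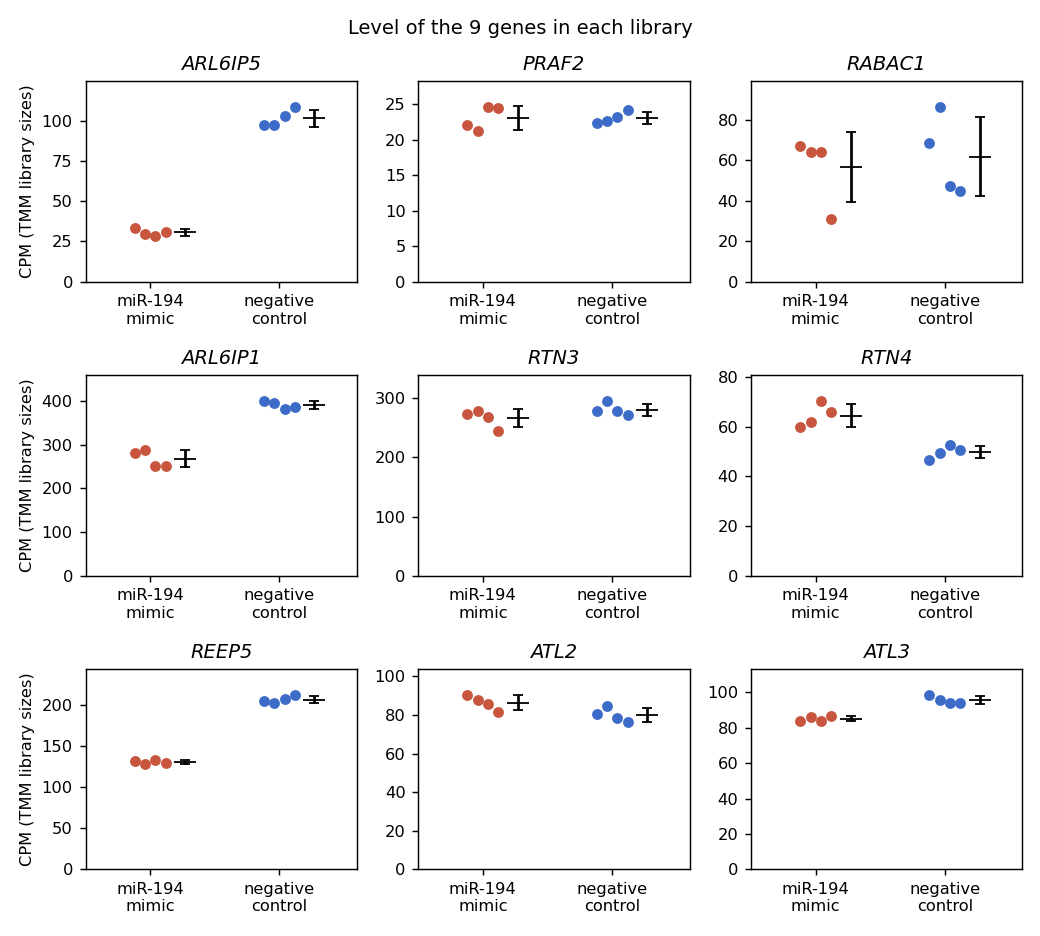
Each panel shows 1 gene, with its level in CPM on the y axis from 0 and the 4 mimic (left) and 4 control libraries (right) as points, in order of replicate number; bars give the mean ± SD. ARL6IP5, ARL6IP1, REEP5 and ATL3 were lower and RTN4 was higher in all mimic libraries than in all control libraries, and the RABAC1 points are spread widely in both groups.

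Neither of the PRA1 paralogs of ARL6IP5 passed the test. PRAF2, an ER protein of the same fold, had 22.0, 21.2, 24.6 and 24.4 CPM in mimic libraries, against 22.3, 22.6, 23.1 and 24.2 CPM in control libraries. Its groups overlapped throughout. PRAF2 averaged 23.0 ± 1.71 CPM in mimic and 23.1 ± 0.81 CPM in control libraries (SD, n = 4 each), and the log2 fold change was 0.00 ± 0.06 (SE). The test did not pass (edgeR quasi-likelihood, Benjamini-Hochberg adjusted p = 0.994), and the approximate 95% interval ran from -0.12 to 0.12. RABAC1 had 67.3, 64.4, 64.3 and 31.0 CPM in mimic libraries, against 68.8, 86.3, 47.4 and 44.7 CPM in control libraries. Mimic replicate 4 stood at less than the level of any other mimic library, and the control libraries were split as well, replicates 1 and 2 above replicates 3 and 4. The difference of -0.13 ± 0.28 on the log2 scale (SE) did not pass (edgeR adjusted p = 0.765). It was 0.08 without mimic replicate 4 and 0.08 without control replicate 2. The interval for RABAC1 ran from -0.68 to 0.43, a range that holds changes of moderate size in either direction. The coefficient of variation of RABAC1 was 30.3% in mimic and 31.6% in control libraries, while that of the other 8 genes was at most 7.43% in any group. What makes RABAC1 vary was not tested. Exons of PRAF2 overlap those of WDR45 on the same strand, and WDR45 rose by 0.24. Exons of RABAC1 overlap those of AC010616.2, and exons of ARL6IP1 those of AC138811.2, also on the same strand. The sources used here do not say how shared reads were counted.

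Within the family, ARL6IP5 made up a smaller share of the mRNA in mimic libraries. Per kb of exon length, it gave 23.0% ± 4.41 of the summed level of the 3 PRA1 genes in mimic libraries, against 48.0% ± 6.34 in control libraries (SD, n = 4 each). With the longest transcript as the length the shares were 15.0% in mimic and 35.0% in control libraries. These shares follow from the fall for which ARL6IP5 was picked.

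Of the 8 genes other than ARL6IP5, 3 fell and 1 rose, while 19.9% of all tested genes fell and 18.3% rose. The median log2 fold change of the 8 was -0.10, against 0.00 over all genes tested. Of the 8, ARL6IP1, RTN4, REEP5 and ATL3 had no overlap between the groups, as did 36.9% of all tested genes. ARL6IP5 is left out here, since lack of overlap was part of its choice. In a bulk RNA sample, fewer cells that express a gene and less of its RNA per cell cannot be told apart.

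Among the hairpin proteins, ARL6IP1 and REEP5 fell and RTN4 rose. ARL6IP1, which bends tubule membranes, had 280.1, 287, 250.1 and 251 CPM in mimic libraries, against 399.6, 395, 382 and 385 CPM in control libraries. All mimic values lay below all control values, and within the mimic group replicates 1 and 2 lay above replicates 3 and 4. ARL6IP1 averaged 267 ± 19.3 CPM in mimic and 390.3 ± 8.20 CPM in control libraries (SD, n = 4 each), and fell by 0.55 ± 0.05 on the log2 scale (SE; edgeR adjusted p = 4.4e-06). The annotation names 3 processed pseudogenes of ARL6IP1, with which it could share reads. REEP5, a partner of reticulons in tubules, had 132, 128, 133 and 129.7 CPM in mimic libraries, against 205, 202, 207 and 212 CPM in control libraries. Both groups were tight and far from overlapping. REEP5 fell by 0.66 ± 0.03 on the log2 scale (SE; edgeR adjusted p = 3.23e-08), to 63.2% of the control level. Exons of REEP5 overlap those of SRP19 and of the pseudogene ZRSR2P1 on the opposite strand. No source used here gives the strand setting of the counts. SRP19 rose by 0.22, with 55.0 CPM in mimic and 47.2 CPM in control libraries. Among tested genes with a 6mer as their best site, 25.0% fell, against 13.4% of those with no match.

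RTN4, the reticulon also called Nogo, was the gene of the 9 that rose. It had 59.8, 62.0, 70.5 and 66.1 CPM in mimic libraries, against 46.6, 49.5, 52.7 and 50.6 CPM in control libraries, with no overlap. Its log2 fold change was 0.37 ± 0.06 (SE; edgeR adjusted p = 0.000337). The gene has long and short isoforms, which counts per gene do not separate. RTN3, a reticulon that also serves as a receptor for the autophagy of ER tubules, had 273, 279, 269 and 246 CPM in mimic libraries, against 278, 295, 278 and 272 CPM in control libraries. The groups overlapped, and the difference, -0.08 ± 0.04 on the log2 scale (SE), did not pass (edgeR adjusted p = 0.200). With the replicate number as a block the value was -0.08 and passed (edgeR adjusted p = 0.0468). A processed pseudogene of RTN3 is also annotated, with which it could share reads.

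ATL3 and ATL2, a pair of atlastins, moved little. ATL3, the only gene of the 9 with an 8mer site in the 3′ UTR, had 83.7, 86.2, 83.9 and 86.6 CPM in mimic libraries, against 98.5, 95.4, 93.7 and 94.2 CPM in control libraries. The groups did not overlap, and ATL3 fell by 0.17 ± 0.03 on the log2 scale (SE; edgeR adjusted p = 0.00224), to 89.2% of the control level. Exons of ATL3 overlap those of the antisense gene AP000753.2 on the opposite strand, and the strand setting of the counts is not known. Of all tested genes with an 8mer, 49.1% fell, with a median log2 fold change of -0.19. ATL2 had 90.4, 87.6, 85.9 and 81.6 CPM in mimic libraries, against 80.3, 84.7, 78.6 and 76.5 CPM in control libraries. These ranges overlapped, although ATL2 was higher in the mimic library of each of the 4 replicate numbers. At 0.11 ± 0.04 on the log2 scale (SE), ATL2 did not pass (edgeR adjusted p = 0.0705). It passed with the replicate block (edgeR adjusted p = 0.0124), without mimic replicate 4 (edgeR adjusted p = 0.0310) and without control replicate 2 (edgeR adjusted p = 0.0335). Over the 8 single-library removals its adjusted p in edgeR ran from 0.0310 to 0.179.

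**Figure D4:**
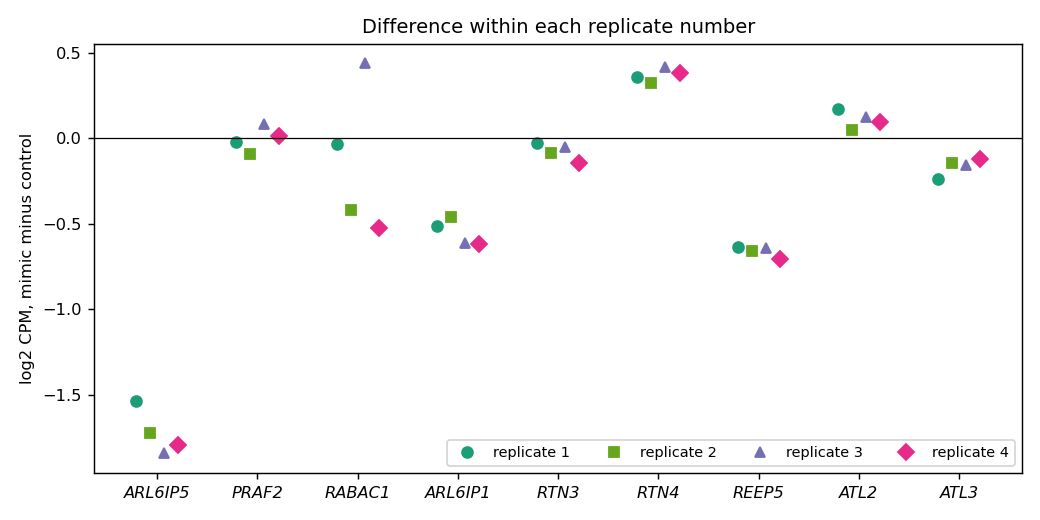
Points give the difference in log2 CPM, mimic minus control (y axis), between libraries of the same replicate number for each of the 9 genes (x axis). All 4 differences were below 0 for ARL6IP5, ARL6IP1, RTN3, REEP5 and ATL3 and above 0 for RTN4 and ATL2; those of RABAC1 ran from -0.52 to 0.44.

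Levels were also set beside each other per kb of exon length (GENCODE 29, joined by symbol). In mimic libraries ARL6IP1 had the highest level, 72.8 ± 5.28 CPM per kb, followed by RTN3 at 46.0 ± 2.53, REEP5 at 30.9 ± 0.49, RABAC1 at 28.4 ± 8.61, ATL2 at 17.7 ± 0.76, PRAF2 at 13.3 ± 0.99, ARL6IP5 at 12.1 ± 0.86, ATL3 at 11.2 ± 0.20 and RTN4 at 9.72 ± 0.71 (SD, n = 4). In control libraries the order was ARL6IP1 at 106 ± 2.24 CPM per kb, REEP5 at 48.8 ± 1.02, RTN3 at 48.5 ± 1.76, ARL6IP5 at 40.2 ± 2.11, RABAC1 at 30.9 ± 9.78, ATL2 at 16.4 ± 0.72, PRAF2 at 13.3 ± 0.47, ATL3 at 12.6 ± 0.29 and RTN4 at 7.50 ± 0.38 (SD, n = 4). ARL6IP5 therefore stood in place 7 in mimic and place 4 in control libraries, and in place 7 in mimic and place 5 in control libraries with the longest transcript as the length. Neighbours in the order whose single values overlapped were REEP5 and RABAC1, RABAC1 and ATL2, PRAF2 and ARL6IP5, and ARL6IP5 and ATL3 in mimic libraries. In control libraries they were REEP5 and RTN3, ARL6IP5 and RABAC1, and PRAF2 and ATL3.

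The 37 other genes of lists on ER shape, ER-phagy and PRA1 partners changed in both directions: 11 fell, 8 rose and 18 did not pass, with a median log2 fold change of -0.04, while 19.9% of all tested genes fell and 18.3% rose, with a median of 0.00. No overlap between the groups was seen for 18 of the 37, and for 36.9% of all tested genes. With the replicate block 14 fell and 11 rose, in a fit that called 7616 of all 14977 genes, against 5712 without the block. Of the 10 that held an 8mer or 7mer site 5 fell and 1 rose, where 38.0% to 49.1% of all tested genes with such a best site fell. Of the 27 without one, 6 fell and 7 rose, where 25.0% of all tested genes with only a 6mer and 13.4% of those with no match fell.

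Of the 6 REEP genes, 4 fell and 2 did not pass, with a median of -0.25, beside 19.9% of all tested genes that fell. Beside REEP5, REEP1, a REEP protein mutated in hereditary spastic paraplegia, had 3.49, 2.91, 2.498 and 2.32 CPM in mimic libraries, against 4.29, 3.89, 4.61 and 4.09 CPM in control libraries, and fell by 0.59 ± 0.13 on the log2 scale (SE; edgeR adjusted p = 0.00373). REEP1 did not pass with replicates 1 and 2 alone, at -0.34 (edgeR adjusted p = 0.0686), against -0.85 with replicates 3 and 4 alone. REEP2 fell by 0.33 and missed the threshold with replicates 1 and 2 alone (edgeR adjusted p = 0.0516), and REEP4, which clears ER from chromosomes in mitosis, fell by 0.16 (edgeR adjusted p = 0.0407). The REEP4 call was lost when mimic replicate 1, 3 or 4 or control replicate 1, 2 or 3 was left out, and with replicates 3 and 4 alone. Over all 8 removals its adjusted p ran from 0.0166 to 0.117. REEP3 held an 8mer site and had 153 CPM in mimic and 157 CPM in control libraries, a difference of -0.03 on the log2 scale that did not pass (edgeR adjusted p = 0.579).

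Of the 6 atlastins and junction partners 3 fell and none rose, beside 19.9% of all tested genes that fell and 18.3% that rose. LNPK, which stabilises tubule junctions and is listed under its older symbol KIAA1715, had 37.8, 37.0, 31.2 and 33.3 CPM in mimic libraries, against 54.4, 50.5, 48.4 and 52.1 CPM in control libraries. It fell by 0.56 ± 0.06 on the log2 scale (SE; edgeR adjusted p = 3.8e-05), and its 3′ UTR held a 7mer-m8 and a 7mer-A1 site. ATL1, the atlastin best known from neurons, fell by 0.24. Of 3 sheet proteins, CKAP4 at 0.08, RRBP1 at 0.02 and KTN1 at -0.11, none passed (edgeR adjusted p = 0.0803, 0.708 and 0.0739). With the replicate block CKAP4 and KTN1 passed (edgeR adjusted p = 0.0252 and 0.0179), and KTN1 also passed without mimic replicate 2 or control replicate 4 (edgeR adjusted p = 0.0175 and 0.0464). Among the other tubule proteins TMEM33 rose by 0.28 although it held 2 7mer-A1 sites, and RAB10, a GTPase of growing tubules, rose by 0.37.

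The receptors of ER-phagy, which hand pieces of ER to autophagosomes, held another large fall. RETREG1, a reticulon-like receptor for ER sheets listed under its older symbol FAM134B, had 3.61, 2.98, 4.12 and 3.62 CPM in mimic libraries, against 8.98, 7.85, 9.93 and 9.03 CPM in control libraries. FAM134B fell by 1.31 ± 0.11 on the log2 scale (SE; edgeR adjusted p = 2.49e-06), and its 3′ UTR held 1 7mer-m8 site. SEC62, a translocon protein that is also such a receptor, moved the other way, with 207 ± 10.1 CPM in mimic and 155 ± 4.23 CPM in control libraries (SD, n = 4 each), and rose by 0.42 on the log2 scale (edgeR adjusted p = 9.26e-06). Of the 7 receptors listed apart from RTN3 and ATL3, 3 fell and 1 rose, while 19.9% of all tested genes fell and 18.3% rose. CCPG1 fell by 0.27 and TEX264 by 0.14 (edgeR adjusted p = 0.0178 and 0.0176). CCPG1 lost its call without mimic replicate 3, mimic replicate 4 or control replicate 3, with an adjusted p from 0.00739 to 0.0535 over all removals in edgeR, and with replicates 1 and 2 alone. TEX264 lost it without control replicate 4, with a range from 0.0145 to 0.0560, and with replicates 3 and 4 alone.

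**Figure D5:**
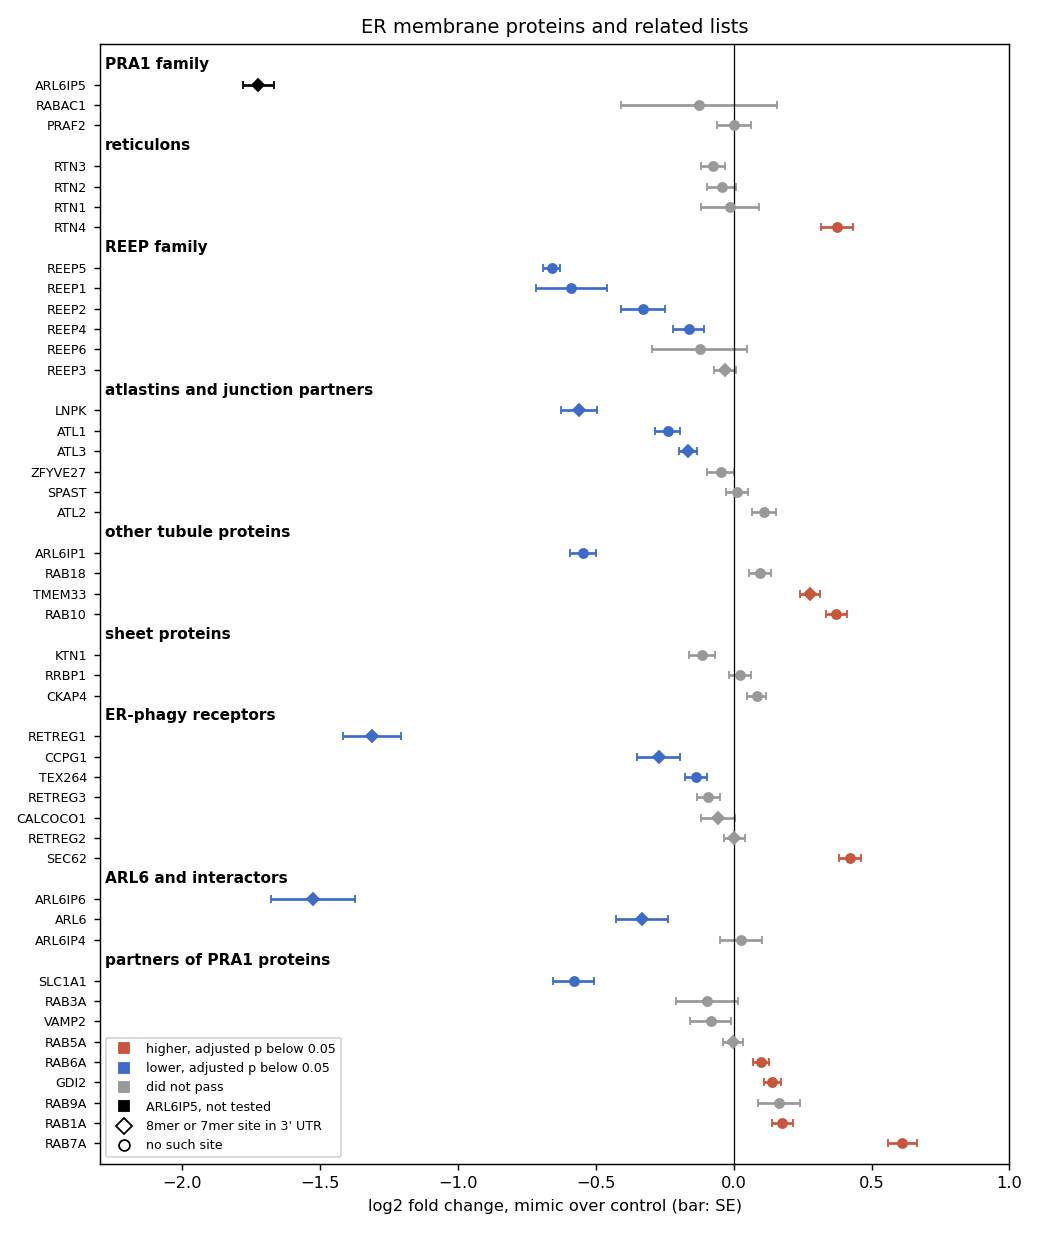
Each point is the log2 fold change, mimic over control, of 1 gene (x axis, bar: SE) from the lists of ER-shaping and related proteins, by list. ARL6IP5 lies lowest at -1.72, followed by ARL6IP6 at -1.53 and RETREG1 at -1.31; diamonds mark genes with an 8mer or 7mer miR-194-5p site in the 3′ UTR.

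ARL6IP5 takes its name from binding to ARL6, a small GTPase of cilia. ARL6 fell by 0.33 (edgeR adjusted p = 0.0149), with overlapping groups, 7.83 ± 0.82 CPM in mimic and 9.87 ± 0.89 CPM in control libraries (SD, n = 4 each). It did not pass with replicates 1 and 2 alone (edgeR adjusted p = 0.194). ARL6IP6, another membrane protein named for ARL6, had 9.27, 8.71, 6.52 and 5.60 CPM in mimic libraries, against 22.6, 24.7, 20.2 and 18.8 CPM in control libraries. It fell by 1.53 ± 0.15 on the log2 scale (SE; edgeR adjusted p = 2.93e-05), and its 3′ UTR held 1 7mer-A1 site and 3 6mers.

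SLC1A1, the transporter that ARL6IP5 restrains in rodents, was lower as well. It had 9.59, 7.90, 8.04 and 8.11 CPM in mimic libraries, against 13.1, 12.9, 12.3 and 12.05 CPM in control libraries, and fell by 0.58 ± 0.08 on the log2 scale (SE; edgeR adjusted p = 0.000104), with no site in its 3′ UTR. Of the 10 genes listed as partners of PRA1 proteins it was the 1 that fell, while 5 rose, beside 19.9% of all tested genes that fell and 18.3% that rose. RAB7A, the GTPase of late endosomes, had the largest rise of the 5, at 222 ± 11.5 CPM in mimic and 145 ± 9.12 CPM in control libraries (SD, n = 4 each). It rose by 0.61 on the log2 scale (edgeR adjusted p = 3.15e-06). RAB1A rose by 0.18, GDI2 by 0.14 and RAB6A by 0.10. The RAB6A call was lost without control replicate 1 or control replicate 4 and in either pair of replicates (edgeR adjusted p = 0.0819 with replicates 1 and 2 alone and 0.124 with replicates 3 and 4 alone).

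Of the 3 protein-coding genes on each side of ARL6IP5 on chromosome 3, 1 fell, 2 rose, 2 did not pass and 1 had no count. Over all tested genes 19.9% fell and 18.3% rose. On the upstream side, UBA3 stood at -0.09 and did not pass (edgeR adjusted p = 0.0961). UBA3 passed with the replicate block (edgeR adjusted p = 0.0204), so that 2 of the 6 fell in that fit, which called 7616 of all 14977 genes. TMF1 rose by 0.20 (edgeR adjusted p = 0.000545), and EOGT, listed as C3orf64, rose by 0.54 (edgeR adjusted p = 0.000247). On the downstream side, LMOD3 had no count in any library, FRMD4B at -0.08 did not pass (edgeR adjusted p = 0.547), and MITF, the farthest of the 3, fell by 0.75 (edgeR adjusted p = 1.96e-05). MITF had 8.32 ± 0.76 CPM in mimic and 13.9 ± 0.75 CPM in control libraries (SD, n = 4 each), and it held 3 8mer or 7mer sites. Such sites were absent from the 3′ UTRs of the other 5.

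The genes whose log2 CPM over the 8 libraries followed ARL6IP5 most closely, among 10302 compared, included SS18, TPD52L2, SCOC and CDV3, with Pearson correlations from 0.9986 to 0.9997. These 4 differed between the groups, a split that enters the correlation, and each of the 4 held an 8mer or 7mer miR-194 site. Their log2 fold changes ran from -0.85 for TPD52L2 to -0.77 for SCOC. Over all tested genes with an annotated 3′ UTR, fallen or not, 79.4% held no 8mer or 7mer site. That share is not a baseline for these 4, which all fell. Of tested genes with an 8mer or 7mer as best site 38.0% to 49.1% fell, against 13.4% of those with no match. Fallen genes in general therefore held such sites more often than all tested genes.

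The series as a whole holds 32485036 to 47248241 counts per library. Of 14977 genes tested, 38.1% changed. All 9 prostate luminal markers examined were present, with a summed level of 4660 to 4983 CPM in mimic and 4476 to 4693 CPM in control libraries. The 4 leukocyte markers summed to at most 0.638 CPM in mimic and 0.674 CPM in control libraries, the 3 endothelial markers to at most 0.0714 CPM in mimic and 0.0255 CPM in control libraries, and PECAM1 and CDH5 had no count. Of 4 fibroblast markers 2 were below 1 CPM, while COL1A1 and LUM were present at 13.99 and 34.04 CPM in mimic and 11.7 and 32.1 CPM in control libraries, so the list summed to 44.5 to 52.8 CPM in mimic and 41.1 to 48.1 CPM in control libraries; its part in the results was not tested. Whether the replicates came from separate cultures is not stated in the labels, and p-values then measure only the spread between these samples, which may be technical.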

How the data were processed

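Raw read counts per gene symbol were deposited for 8 libraries as 1 table, per the sheet name. Per the submitters' processing notes, the tools included STAR, cutadapt 1.8.1, FastQC, edgeR 3.3 and R 3.2.3, and the build was hg19; roles are not stated. The sources used here give no counting program, annotation or strand setting. A floor of 3 counts corresponded to 0.0638 to 0.0930 CPM, which covers counting error only. Groups and replicate numbers came from the sample titles. Counts were tested in edgeR 4.0.16 under R 4.3.3 (filterByExpr, TMM, robust quasi-likelihood fit, group as the only term, Benjamini-Hochberg adjustment over all genes tested, threshold 0.05). A standard error is the log2 fold change over the root of F. DESeq2 1.42.0, limma 3.58.1 (voom), other scalings and filters, the replicate block, single-library removals and replicates 1 and 2 or 3 and 4 alone were alternatives. The fit was tested on simulated counts, where the share of false calls was above the nominal one and small changes were often missed.

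Libraries with the same number in both groups shared deviations from their group mean (r = 0.61, 0.57, 0.24 and 0.72 over genes with a mean log2 CPM of 3 or more). Pairing by number was fitted only as an alternative, the replicate block. Calls given without a named setting come from the fit with group as the only term. Replicates 1 and 2 also correlated across numbers (0.54 and 0.46), as did replicates 3 and 4 (0.55 and 0.32), and no label ties a number to a day. Mimic replicate 3 followed control replicate 4 (0.32) more closely than control replicate 3 (0.24). All pairs of replicates within a group differed beyond counting noise, with a chi-square over its degrees of freedom of 3.76 to 17.6. Matches were searched on the transcript strand in GENCODE 29 (GRCh38), taking each gene's longest 3′ UTR and leaving out those under 50 bases. That is not the build of the counts, so genes were joined by symbol or RefSeq synonym, and 1687 of 23346 symbols had no match. The members and lists were chosen with earlier results of these data known. The genes named are the members, genes of the lists, the 3 protein-coding genes on each side of ARL6IP5, those overlapping a member, and the 5 genes most correlated with ARL6IP5; 2 of these genes are not reported here.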

Additional observations from a re-analysis of the deposited data

Results flagged for a closer look

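In groups of 4 libraries, 6 of 92 values examined had 1 library apart from the others (Dixon's test at the 95% level), and chance alone sets apart about 1 group in 20. RABAC1 stood at 31.05 CPM in mimic replicate 4, against 64.3 to 67.3 CPM in the other mimic libraries. ARL6IP4 stood at 146.9 CPM in mimic replicate 4, against 169 to 173 CPM. CCPG1 stood at 6.695 CPM in mimic replicate 2, against 5.68 to 5.78 CPM, and SLC1A1 at 9.587 CPM in mimic replicate 1, against 7.90 to 8.11 CPM. CKAP4 stood at 158.6 CPM in control replicate 3, against 150.7 to 152 CPM, and RAB6A at 185.4 CPM in control replicate 3, against 180.5 to 181 CPM.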

How the results depend on the processing

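ARL6IP5 kept its direction in all 17 alternative fits, with a log2 fold change from -1.77 to -1.69 with 1 library left out. The calls of ARL6IP1, REEP5, RTN4 and ATL3 were kept in all 17. The number of the 8 other genes that rose was 2 under upper quartile scaling and under the replicate block, both through ATL2, and 1 to 2 with 1 library left out. The number of other list genes that fell was 7 with replicates 1 and 2 alone. The replicate block called 7616 genes, against 5712, and changed the calls of RTN3, ATL2, CKAP4, KTN1 and UBA3 among the genes named. PRAF2 lay at -0.0016 with the block and -0.0562 with replicates 1 and 2 alone, and from -0.0265 to 0.0404 with 1 library left out. RABAC1 lay at 0.0457 with replicates 3 and 4 alone and from -0.2546 to 0.0838 with 1 library left out. REEP3 lay at 0.0058 with replicates 1 and 2 alone. The cause of these shifts was not tested. With the longest transcript as the length, control levels in CPM per kb were 48.2 for ARL6IP5, 17.3 for PRAF2, 75.3 for RABAC1, 162 for ARL6IP1, 56.9 for RTN3, 10.4 for RTN4, 62.0 for REEP5, 27.9 for ATL2 and 13.4 for ATL3, which puts RABAC1 in place 2 and ARL6IP5 in place 5. The number of the 9 genes with an 8mer or 7mer site was 2 in the longest and in any annotated 3′ UTR.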
